A study of Mus musculus with 2 samples.

Results

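Cornified envelope and epidermal barrier genes were compared between teratomas of embryonic stem (ES) cells and teratomas of EiPS cells (induced pluripotent stem cells). The genes were chosen by symbol, by a rule that holds no signal value but was written with earlier results of these arrays known. They comprise the Lce and Sprr families, the transglutaminases Tgm1 to Tgm3, the lipoxygenases Alox12b and Aloxe3, the tissue kallikreins of the skin, the desmosomal Dsg and Dsc genes and 16 further genes such as Lor, Flg, Ivl and Dsp. On the array, 50 of 12393 named genes met this rule, measured by 67 probe sets (groups of short probes that read 1 transcript). Sbsn, Cnfn and Abca12 were not analysed here.

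Teratomas are tumours of mixed differentiated tissue that pluripotent cells form after transplantation. The B6 ES pool held RNA of 2 teratomas from C57BL/6 (B6) ES cells, and the EiPS pool held RNA of 2 teratomas from EiPS cells that the submitters describe as regression teratomas. Both cell types were of strain C57BL/6 per the labels and had been placed under the skin of male B6 mice, and all tumours were taken out at week 6. Each pool was hybridised to 1 Affymetrix mouse array from 5 µg of total RNA, so no difference has a replicate check, and no test or p-value is given. The tumours that were pooled, the cell line and the array cannot be told apart, and the source label gives the EiPS cells under a single iPS line name. Signals are the deposited intensities on a linear scale, with a 2% trimmed mean of 500.2 on both arrays. A signal floor of 25.4, the 90th percentile of 68 probe sets for odour, pheromone and taste receptors, marked where a signal can no longer be told from background. Of all probe sets, 79.3% stood above it on the B6 ES array, and the share was 82.1% for EiPS. Where the B6 ES signal lay under the floor, the floor took its place and the fold is a bound, written "at least".

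The epidermis is renewed by keratinocytes that divide in the basal layer, move outwards and end as dead, flattened corneocytes. In their last living layers they place precursor proteins (involucrin, loricrin, small proline-rich and late cornified envelope proteins) under the plasma membrane, where transglutaminases cross-link them into an insoluble shell. Lipoxygenases prepare lipids for attachment to that shell, desmosomes are turned into corneodesmosomes that hold the dead cells together, and kallikrein proteases cut these junctions so that cells can be shed. Many of the precursor genes lie side by side in the epidermal differentiation complex, a cluster on mouse chromosome 3.

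The stretches just before the start of 5 of these genes are printed because their signals stood apart between the pools and because they show how the families differ in sequence. The sequences are from RefSeq, build GRCm38.p6, 250 bases each, 5′ to 3′ on the strand of the gene. Capitals mark letters that match the AP-1 motif TGANTCA or the TATA motif TATAAA; the matches printed do not overlap. Lor lies at chr3:92083143-92083392, minus strand, Sprr1a at chr3:92485882-92486131, minus strand, Sprr2f at chr3:92364937-92365186, plus strand, Krtdap at chr7:30787655-30787904, plus strand, and Lce3a at chr3:92926231-92926480, minus strand.
Lor: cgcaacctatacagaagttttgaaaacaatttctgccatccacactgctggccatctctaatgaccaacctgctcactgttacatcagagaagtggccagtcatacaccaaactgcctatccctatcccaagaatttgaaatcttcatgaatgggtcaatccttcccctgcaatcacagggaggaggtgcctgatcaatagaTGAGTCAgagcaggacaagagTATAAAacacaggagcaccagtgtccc
Sprr1a: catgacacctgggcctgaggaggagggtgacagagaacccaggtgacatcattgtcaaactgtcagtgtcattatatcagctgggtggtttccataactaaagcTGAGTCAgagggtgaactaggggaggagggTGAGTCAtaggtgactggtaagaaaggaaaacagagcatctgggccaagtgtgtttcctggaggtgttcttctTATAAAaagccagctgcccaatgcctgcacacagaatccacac
Sprr2f: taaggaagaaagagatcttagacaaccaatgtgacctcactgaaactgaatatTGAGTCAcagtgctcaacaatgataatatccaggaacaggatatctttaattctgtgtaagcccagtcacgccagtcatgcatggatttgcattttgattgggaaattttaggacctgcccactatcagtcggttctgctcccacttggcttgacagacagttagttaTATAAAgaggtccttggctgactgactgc
Krtdap: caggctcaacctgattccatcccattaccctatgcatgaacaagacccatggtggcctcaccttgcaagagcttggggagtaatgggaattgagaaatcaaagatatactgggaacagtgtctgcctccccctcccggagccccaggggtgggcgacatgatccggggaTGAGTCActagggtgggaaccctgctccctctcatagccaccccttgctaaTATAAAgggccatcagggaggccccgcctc
Lce3a: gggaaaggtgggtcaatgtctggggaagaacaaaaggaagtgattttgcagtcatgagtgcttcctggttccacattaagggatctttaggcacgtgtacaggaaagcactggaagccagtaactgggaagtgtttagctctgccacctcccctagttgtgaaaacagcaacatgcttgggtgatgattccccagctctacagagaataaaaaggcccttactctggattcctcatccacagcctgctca
Counted back from the start of the gene, the AP-1 match of Lor begins at position -48 and its TATA match at -27. Sprr1a has AP-1 matches at -146 and -116 and a TATA match at -43. In Sprr2f the AP-1 match begins at -197 and the TATA match at -29, and in Krtdap they begin at -81 and -30. The stretch of Lce3a holds neither motif.

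The AP-1 motif is bound by Fos and Jun proteins, and the TATA motif by the core transcription machinery. Windows of 300 bases (250 before the start to 50 after it) were found for 38 of the 50 genes, 44 windows in all, and both strands were searched. The AP-1 letters stood in 14 of these 44 windows (31.8%), against 7.81% of all 32851 windows of the same length. They were in 7 of 8 Sprr windows and in 0 of 10 Lce windows. The TATA letters stood in 14 of 44 (31.8%), against 13.6% of all windows, and in 8 of 8 Sprr windows against 1 of 10 Lce windows. From position -40 to -20 on the strand of the gene, a range chosen after the data were seen, TATAAA began in 12 of 44 windows (27.3%) and in 1.99% of all windows. The CACCC letters bound by Krüppel-like factors were in 26 of 44 (59.1%), close to the 57.5% of all windows, and the grainyhead-like motif AACCGGTT was in 0 of 44, against 0.146% of all. Some genes had several windows, and overlapping windows of Dmkn held the same AP-1 match, which was counted for each. Sprr genes, which have arisen by duplication, share much of their sequence. For these reasons the counts are not independent, and a match describes letters and is no site of binding.

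Most of the envelope and barrier genes that could be measured had a higher signal in the EiPS pool. Of the 50 genes, 32 passed the floor on both arrays, 9 on the EiPS array only, 0 on the B6 ES array only and 9 on neither. Among the 32 measured on both, 30 were higher in the EiPS pool (93.8%) and 2, Tgm2 and Jup, were lower. Of all 10231 genes measured on both, 55.3% were higher. At least 2-fold higher were 15 of the 32 (46.9%, against 4.92% of all genes) and at least 4-fold higher were 4 (12.5%, against 0.645%). None of the 32 was lower by 2-fold, where 2.95% of all genes were. The median log2 difference, EiPS less B6 ES, was 0.92 over the 32 genes and 0.06 over all genes. In bulk tissue, fewer cells of a type and less RNA per cell cannot be told apart.

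With the 9 genes measured in the EiPS pool alone, which could only come out higher, 41 genes were compared. Of these, 39 were higher by any amount (95.1%, against 56.3% of 10988 genes), 20 by at least 2-fold (48.8%, against 5.82%), 7 by at least 4-fold (17.1%, against 0.828%) and 0 were lower by at least 2-fold (against 3.04%). The median was 0.93, against 0.07 over all genes. Lce3a and Lce1f are known to be among genes that the study itself picked from these arrays, so they are not independent evidence of the direction. Without them 18 of 39 were at least 2-fold higher and the median was 0.91. Many signals were low. In the 16 genes with signals of at least 100 on both arrays, 7 were at least 2-fold higher, where 2.91% of all such genes were.

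**Figure D1:**
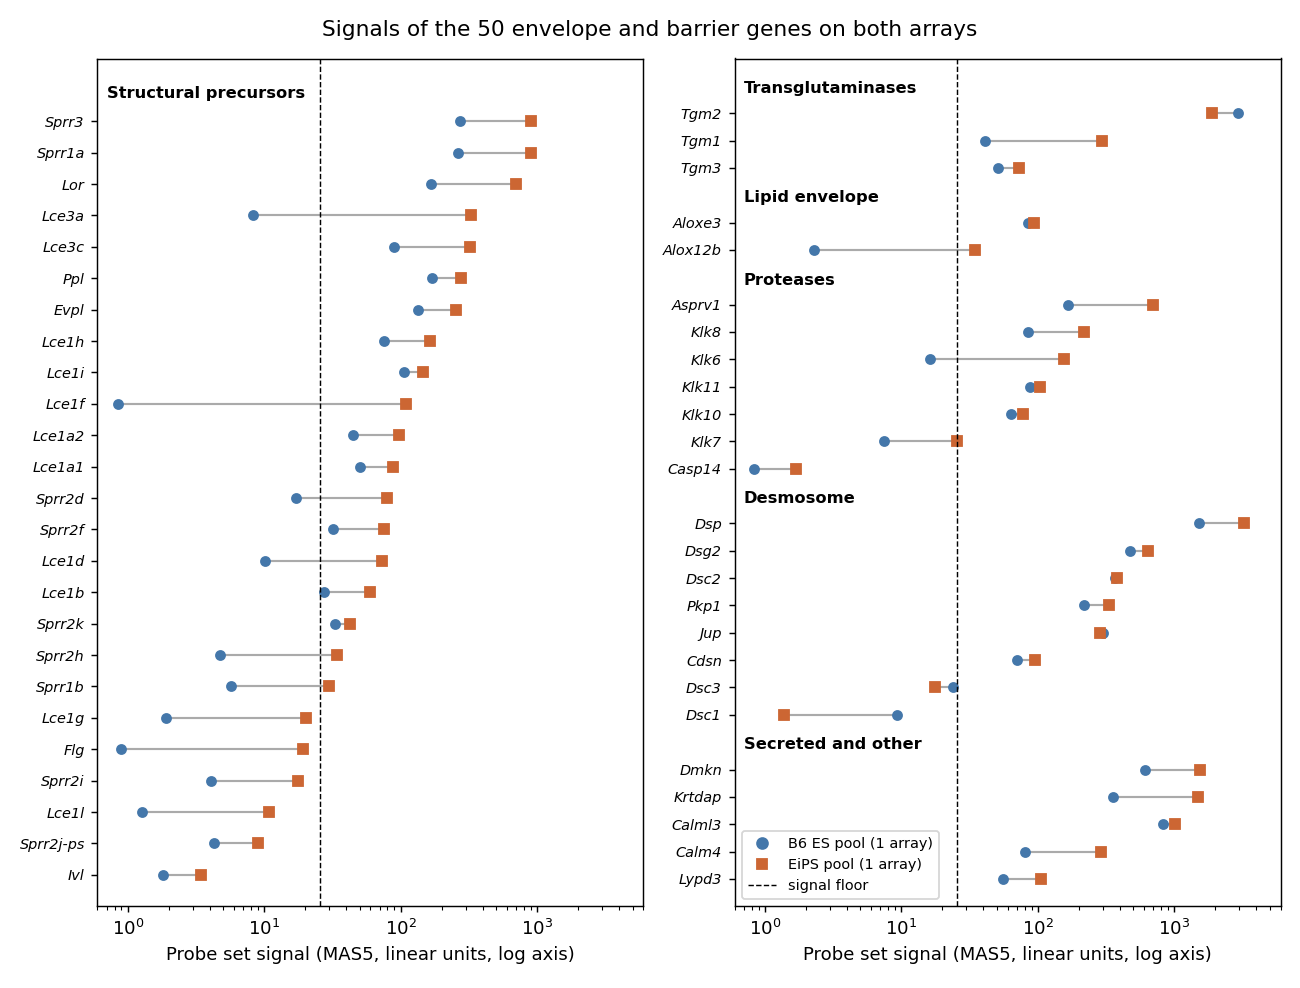
Signal of each of the 50 genes (MAS5 linear units on a log axis) in the B6 ES pool (blue circle) and the EiPS pool (orange square), 1 array each, grouped by role, with the signal floor of 25.4 as a dashed line. In 30 of the 32 genes above the floor on both arrays the EiPS point lies to the right, and Tgm2 and Jup are the other two.

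The structural precursors, the proteins that make up the shell, were higher in the EiPS pool in all 19 of 25 genes that could be compared, 12 of them by at least 2-fold, with a median log2 difference of 1.13. As 6 of the 19 were measured in the EiPS pool alone and could not have come out lower, the 13 measured on both arrays were also counted: all 13 were higher (8 by 2-fold or more, median 1.12). Loricrin (Lor), the main protein of the envelope in the epidermis, read 167 on the B6 ES array against 699 on the EiPS array, 4.18-fold higher. A further probe set of Lor read 118 and 601, a log2 difference of 2.35 beside 2.06, and the remaining one was under the floor on both arrays. Both usable probe sets of the gene thus gave a difference of over 4-fold, and the mean over all its probe sets a log2 difference of 1.44.

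Small proline-rich (Sprr) proteins are short cross-bridging precursors, and several are made in response to stress or in internal stratified epithelia. Sprr1a had signals of 264 and 902 in the B6 ES and EiPS pools, 3.42-fold higher in the latter. Sprr3, which is best known from the oesophagus and oral lining, had 270.0 and 904, 3.35-fold higher. Both were far above the floor on both arrays. The Sprr signals that follow were low: Sprr2f had 31.8 and 75.9 (2.39-fold, and under 2-fold in 3 of 9 alternative settings), and Sprr2k 33.1 and 42.3 (1.28-fold). Sprr2d (17.1 and 79.6, at least 3.13-fold, and under 2-fold with a floor of 49.6, the 98th percentile of the receptor signals), Sprr2h (4.75 and 33.9, at least 1.33-fold) and Sprr1b (5.69 and 29.8, at least 1.17-fold) passed the floor only with EiPS. Sprr2i and Sprr2j-ps were under it on both arrays. Of 9 Sprr genes, 7 were compared (3 as bounds) and 4 were at least 2-fold higher, with a median log2 difference of 1.25. The Sprr2 genes are near copies of each other, so their probe sets may read more than 1 gene.

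Late cornified envelope (Lce) proteins are small cysteine-rich precursors added late in the process. Lce3a read 8.26 with B6 ES, which is under the floor, against 328 with EiPS, a difference of at least 12.9-fold. Lce1f had 0.853 and 109, at least 4.27-fold higher, while its second probe set (3.83 and 11.4) was under the floor on both arrays and the mean over both gave a log2 difference of 0.47. Lce3a held rank 7 among the differences of 10988 genes, and Lce1f rank 75. Neither could be told from background in the B6 ES pool, so the size of these differences is not known. With the floor at 49.6 the bounds were 2.73 for Lce3a and 1.13 for Lce1f on the log2 scale, and with a floor of 100 they were 1.71 and 0.12. Lce3c had signals of 89.7 and 321 (3.58-fold), and Lce1d 10.2 and 72.9 (at least 2.87-fold, and under 2-fold with the floor at 49.6). Lce1b (27.5 and 59.9), Lce1a2 (44.9 and 97.5) and Lce1h (75.9 and 164) were each 2.16-fold to 2.18-fold higher in the EiPS pool. These 3 lie near the threshold: of 9 alternative settings that gave a value, Lce1b stayed at 2-fold or more in 5, and Lce1a2 and Lce1h in 4 each. Lce1a1 had 49.97 and 87.5, 1.75-fold higher, and its other probe set read 7.70 and 56.4, at least 2.22-fold higher, with a log2 difference of 1.47 for the mean over both. Lce1i had the smallest difference of the family, 106 and 145 (1.36-fold). Of 11 Lce genes 9 were compared (3 as bounds) and all 9 were higher, 7 of them by at least 2-fold. The 3 bounds could only come out higher, and the other 6 genes were measured on both arrays. Lce1g and Lce1l were under the floor on both arrays. The probe sets of Lce3c, Lce1d, Lce1h, Lce1a1 and Lce1i are of the kind that can bind related transcripts, and members of the family cannot be told apart with certainty.

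Envoplakin (Evpl) and periplakin (Ppl), scaffold proteins laid down early, differed less: Evpl had signals of 135 and 254 (1.88-fold higher in the EiPS pool) and Ppl 171 and 277 (1.62-fold). Some defining products of the granular layer were not measurable in either pool. The probe set of filaggrin (Flg), whose product packs keratin filaments, read 0.900 with B6 ES and 19.2 with EiPS, and that of involucrin (Ivl), an early envelope precursor, read 1.82 and 3.46. Both genes were therefore not compared. Probe sets that carry more than 1 gene symbol were used for no gene. A probe set with 3 symbols, all of the Sprr2 family, read 1595 and 3710.45, 2.33-fold higher in the EiPS pool, and another with 2 symbols of that family read 1254 and 2927, also 2.33-fold.

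**Figure D2:**
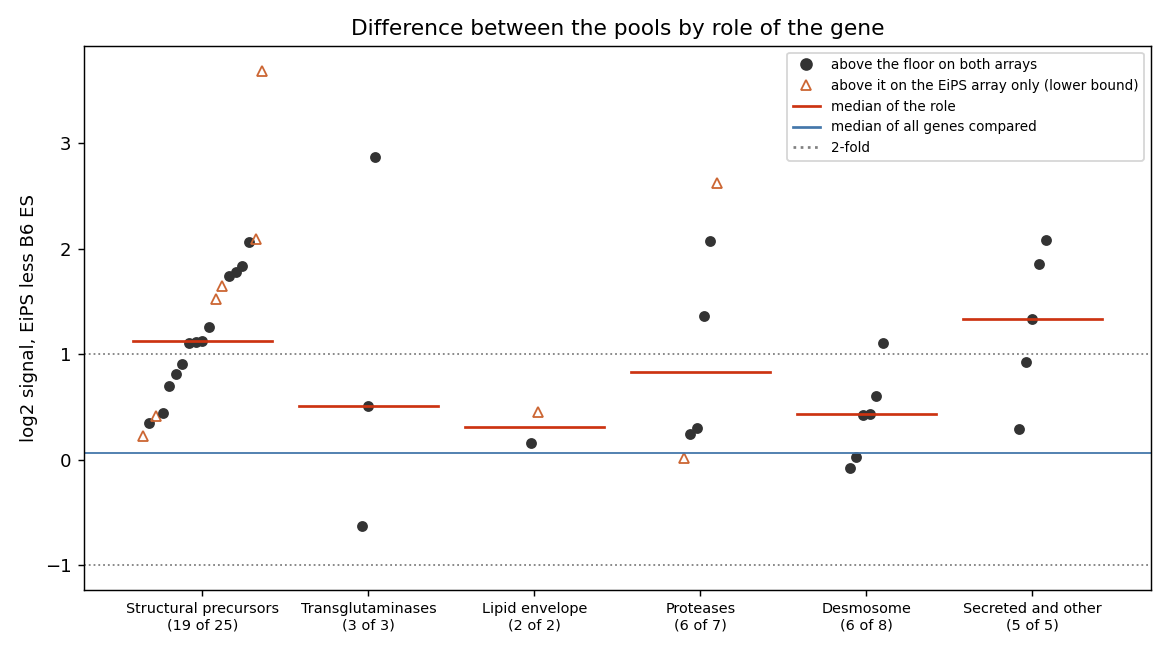
Log2 signal difference, EiPS less B6 ES, of the 41 genes compared, by role. Filled circles are genes above the floor on both arrays, open triangles are lower bounds, red bars are role medians (structural precursors 1.13, desmosome genes 0.43) and the blue line is the median of all 10988 genes, 0.07.

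The 3 transglutaminases differed in direction. Tgm1, the membrane-bound enzyme that cross-links the envelope in keratinocytes, read 40.7 with B6 ES against 297 with EiPS, 7.30-fold higher, rank 27 of the 10988 differences. As its B6 ES signal was low, the log2 difference of 2.87 became 1.57 with a floor of 100 and 1.79 with log2(signal + 64). Tgm3, a soluble enzyme of the epidermis and hair follicle, had 51.0 and 72.5, 1.42-fold higher. Tgm2, the tissue transglutaminase found in many cell types outside the epidermis, went the other way with 2907 and 1878, 1.55-fold lower in the EiPS pool. Its 5 probe sets above the floor were all lower, with log2 differences from -0.93 to -0.62.

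Alox12b and Aloxe3, lipoxygenases that act in sequence on the ceramides bound to the envelope, both came out higher in the EiPS pool. Alox12b was above the floor with EiPS alone and could not have come out lower. Alox12b read 2.29 and 34.9, a difference of at least 1.37-fold whose upper size is not known. Aloxe3 had 84.6 and 94.6, 1.12-fold higher, with a log2 difference of -0.05 under quantile scaling.

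The proteases, which process envelope proteins or cut corneodesmosomes, were higher in the EiPS pool in 6 of 6 genes compared, 3 of them by at least 2-fold (median log2 difference 0.83). Of the 6, 2 were measured in the EiPS pool alone, and of the 4 measured on both arrays 2 were at least 2-fold higher. Asprv1, a retroviral-like protease of the upper epidermis that processes profilaggrin, had signals of 166 and 700.1, 4.21-fold higher. Klk6 had 16.2 and 157, at least 6.16-fold higher, a bound that falls to a log2 value of 1.66 with the floor at 49.6 and to 0.65 with a floor of 100. Klk8 had 84.9 and 219, 2.58-fold higher, or 0.93 on the log2 scale with log2(signal + 64). Both kallikreins are secreted trypsin-like proteases. The other kallikreins differed less. Klk10 had signals of 63.7 and 78.2 (1.23-fold), and Klk11 87.5 and 104 (1.18-fold). Klk7, a chymotrypsin-like enzyme of shedding, read 7.45 and 25.7, barely above the floor. Casp14, a caspase of terminal keratinocytes, was under the floor with 0.833 and 1.69, as was filaggrin, the substrate of Asprv1.

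Genes of the desmosome, the junction that keratinocytes share with simple epithelia and heart muscle, had fewer 2-fold differences than the precursors, proteases or secreted proteins, 1 of 6 compared (median 0.43). Desmoplakin (Dsp), which ties the junction to keratin filaments, had signals of 1508 and 3249, 2.15-fold higher in the EiPS pool, while its other usable probe set read 1132 and 1653, 1.46-fold higher, and 2 of 10 alternative settings put the gene under 2-fold. Plakophilin 1 (Pkp1), prominent in suprabasal epidermis, had 217 and 331, 1.52-fold higher. Corneodesmosin (Cdsn), an adhesive protein of corneodesmosomes, had 71.0 and 96.1, 1.35-fold higher. The differences of Dsp and Pkp1 were in the direction of the precursors but smaller than those of Lor or Sprr1a.

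Of the desmosomal cadherins 2 were compared, both under 2-fold. Dsg2, the desmoglein of simple epithelia and heart, had signals of 476 and 638 (1.34-fold higher), but its 5 probe sets above the floor ran from -0.58 to 0.62 on the log2 scale. Dsc2, its desmocollin counterpart, had 370.5 and 377 (1.02-fold), with a second probe set at 0.44. Plakoglobin (Jup), a component of desmosomes and adherens junctions, had 299.6 and 283, 1.06-fold lower in the EiPS pool. Dsc1 (9.22 and 1.39) and Dsc3 (24.1 and 17.7), the desmocollins of stratified epidermis, were under the floor on both arrays.

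**Figure D3:**
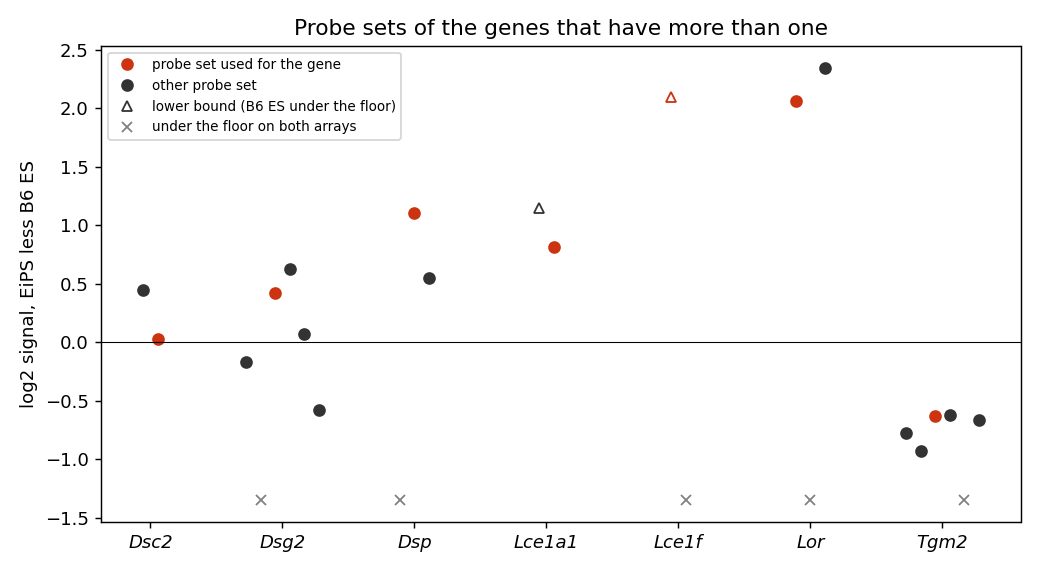
Log2 signal difference, EiPS less B6 ES, for each probe set of the 7 genes that have several, with the one used for the gene in red, lower bounds as triangles and probe sets under the floor on both arrays as crosses. The 5 usable probe sets of Tgm2 all lie below 0, from -0.93 to -0.62, both of Lor lie above 2, and those of Dsg2 lie on either side of 0.

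Secreted and other suprabasal proteins were higher in the EiPS pool in 5 of 5 genes, 3 by at least 2-fold, with a median log2 difference of 1.34. Krtdap, a small secreted protein of differentiating keratinocytes, had signals of 354 and 1499.6, 4.23-fold higher. Calm4, a calcium-binding protein of the suprabasal epidermis, had 80.4 and 291, 3.63-fold higher. Dermokine (Dmkn), another secreted protein of the upper layers, had 609 and 1539, 2.53-fold higher. Krtdap and Dmkn were well above the floor on both arrays, unlike most Lce genes. Lypd3, a membrane-anchored protein of suprabasal cells, had 55.5 and 106, 1.90-fold higher, and Calml3, an epithelial calmodulin-like protein, had 828 and 1014, 1.22-fold higher.

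The precursor genes were then placed in the order of the epidermal differentiation complex. Of 70 protein-coding genes from S100a1 to S100a10, 38 belong to the envelope genes. Of these, 22 were on the array with their own probe set, 17 were compared, all 17 were higher in the EiPS pool, 12 of them by 2-fold or more, with a median of 1.25. Of these 17, 6 were above the floor with EiPS alone and could only come out higher, so the 11 measured on both arrays are the ones to set beside the rest of the cluster. These 11 were all higher (8 by 2-fold or more, median 1.13). Of the 32 other genes of the cluster, 17 had a probe set, 14 were compared (all measured on both arrays), 10 were higher and 4 lower, and 3 were at least 2-fold higher (median 0.60). The S100 genes, which encode calcium-binding proteins, flank the cluster at both ends. Those at the outer ends, from S100a1 to S100a6 and S100a10, differed by less than 2-fold, whereas S100a9 (55.2 and 331, 6.00-fold), a gene of neutrophils and stressed keratinocytes, stood next to Lor among the genes on the array. Of the remaining non-S100 genes, repetin (Rptn, 36.3 and 230.0, 6.33-fold), an envelope protein, was also higher in the EiPS pool. Further probe sets of Rptn (20.3 and 17.0, and 12.4 and 22.9) were under the floor on both arrays. The B6 ES signal of 36.3 also lay under the alternative floor of 49.6. Crct1 (202 and 881, 4.36-fold), a cysteine-rich protein of stratified epithelia, was higher too, and trichohyalin (Tchh, 32.6 and 65.1) was just under 2-fold higher. Of the skin kallikreins, which are clustered elsewhere, all 5 on the array were higher in the EiPS pool, 2 of them as bounds, and 2 were at least 2-fold higher (median 0.30). Those bounds could only come out higher. Of the 3 other kallikreins compared, 1 was measured on both arrays, Klk1, and it was 3.84-fold higher. Klk1b21 was lower by at least 4.78-fold and Klk1b11 higher by at least 1.46-fold. Klk1b21 and Klk1b11 were each above the floor on a single array, so their direction was fixed.

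**Figure D4:**
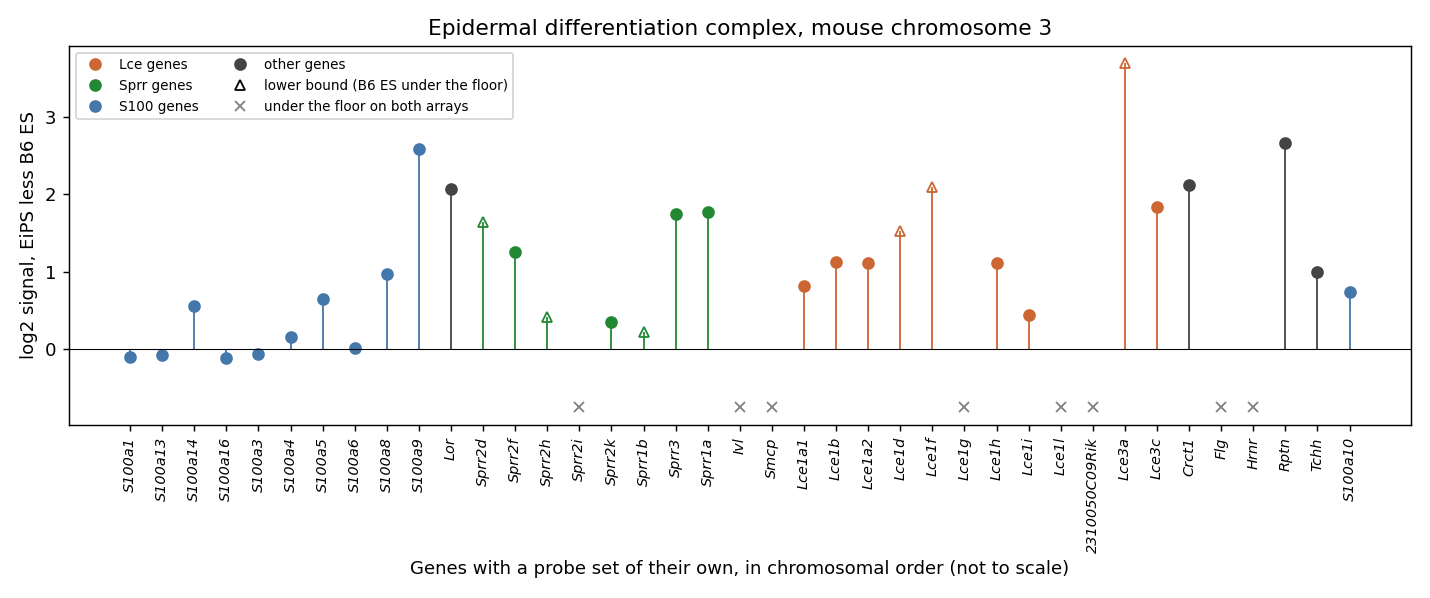
Log2 signal difference, EiPS less B6 ES, of the genes of the epidermal differentiation complex that have a probe set of their own, in chromosomal order and not to scale. Lce genes are orange, Sprr genes green and S100 genes blue, open triangles are lower bounds and crosses are genes under the floor on both arrays. The 17 envelope genes with a value all lie above 0, while the outer S100 genes lie between -1 and 1.

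Basal keratinocyte genes had a smaller median difference than the envelope genes. Of 9 such genes, 7 were higher and 2 lower in the EiPS pool, 0 by 2-fold, with a median log2 difference of 0.19, and the summed signal was 8054 with B6 ES and 9119 with EiPS. Krt5 had signals of 915 and 1322 (1.45-fold higher) and its partner Krt14 487 and 616 (1.27-fold), so keratinocyte keratins were well above the floor in both pools. Lamb3 and Dst, which anchor basal cells, were 1.48-fold and 1.31-fold higher. One further probe set of Dst was lower, by 0.30 on the log2 scale. The 2 lower genes were Trp63 (184 and 145, 1.27-fold) and Krt15 (2971 and 2896, 1.03-fold). In late epidermal genes outside the rule, 16 of 20 compared were higher and 6 were at least 2-fold higher (median 0.39). Among the 16, Krt16 was above the floor with EiPS alone and could only come out higher. Mt4, a metallothionein of differentiating stratified epithelia, had signals of 33.4 and 502 (15.0-fold), and Krt6b, a keratin of stressed and internal epithelia, 123 and 418 (3.39-fold). The B6 ES signal of Mt4 was low, under the alternative floor of 49.6, so the size of its fold is uncertain. Rptn and Crct1 belong to this list too. The suprabasal keratins Krt1 (178 and 226, 1.27-fold) and Krt10 (366 and 453, 1.24-fold), named after their values were seen, differed less than Lor, Krtdap or Asprv1.

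Genes that act on or beside the envelope had medians closer to that of all genes. Of 23 regulators of epidermal differentiation compared, 17 were higher and 6 lower in the EiPS pool (median 0.10), and 1, the vitamin D receptor Vdr (35.2 and 99.5, 2.82-fold), was at least 2-fold higher. Notch1 was 1.84-fold and Klf4 1.69-fold higher, and the AP-1 subunit Fosl1 (2.63 and 48.6) at least 1.91-fold. Fosl1 passed the floor with EiPS alone, and its signal of 48.6 lay under the alternative floor of 49.6. The other probe set of Fosl1 (2.52 and 2.96) was under the floor on both arrays. Jun had signals of 1099 and 1158, and Junb 223 and 343. The 6 lower regulators were Grhl1, Grhl2, Hopx, Klf5, Ovol1 and Ovol2, 0 of them by 2-fold. Grhl1 had 117 and 101, Grhl2 185 and 160, and Ovol1 41.7 and 34.7. Ovol2 (36.5 and 24.9) was above the floor with B6 ES alone and could only come out lower. Of 15 genes of barrier lipid synthesis and transport, 6 were higher and 9 lower, 0 by 2-fold, with a median of -0.25. Elovl4, which makes the very long fatty acids of skin ceramides, had signals of 575 and 309.6, 1.86-fold lower, and Sult2b1, Slc27a4 and Abhd5 were 1.42-fold, 1.38-fold and 1.27-fold lower, though another probe set of Abhd5 read 0.04 on the log2 scale. Of 13 inhibitors and activators of epidermal proteases, 8 were higher and 5 lower, 0 by 2-fold (median 0.12). In this list Cst3, Ctsd and St14 were 1.54-fold, 1.51-fold and 1.47-fold higher and Elane 1.55-fold lower. Of 14 genes of tight junctions and calcium handling, 6 were higher and 8 lower (median -0.04). Among the 6, Casr and Padi3 were above the floor with EiPS alone and could only come out higher. Cldn1 had 576 and 185, 3.12-fold lower, while another probe set of it was higher by 0.38 on the log2 scale. Padi1, a deiminase of the epidermis, was 1.76-fold higher, Casr at least 1.48-fold higher and Atp2a2 1.48-fold lower, the last with probe sets from -1.05 to 0.16.

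**Figure D5:**
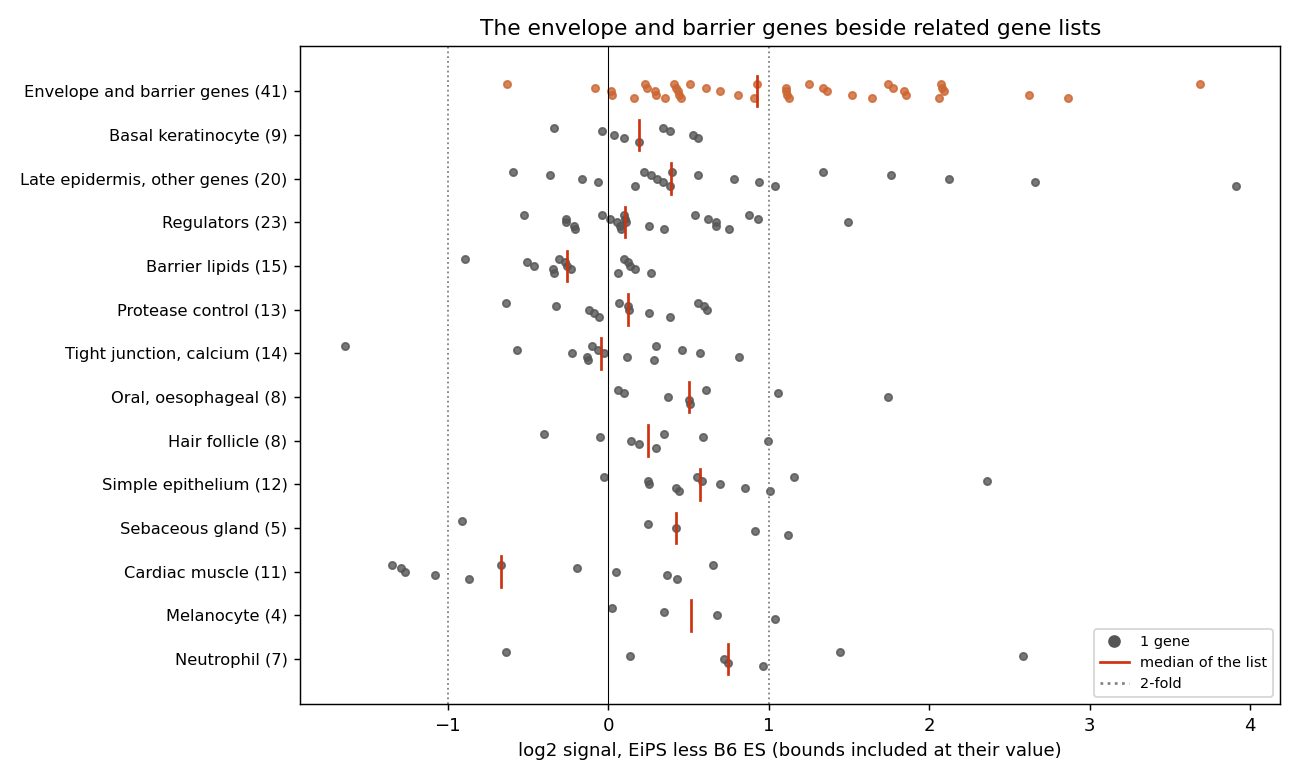
Log2 signal difference, EiPS less B6 ES, of each compared gene in the envelope and barrier set (orange) and in 13 related gene lists (grey), with list medians as red bars and bounds drawn at their value. The number of genes compared stands in brackets. The envelope and barrier genes have a median of 0.93, basal keratinocyte genes 0.19 and barrier lipid genes -0.25.

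Markers of other tissues that hold some of these genes also differed between the pools, and their part in the results above was not tested. Of 8 markers of oral and oesophageal epithelium compared, all 8 were higher in the EiPS pool (median 0.51, 2 by at least 2-fold), and the summed signal over the 9 on the array was 8380.2 and 12717. Of the 8, 1 (Krt84) was above the floor with EiPS alone and could only come out higher. This list includes Sprr3 and Tgm3. Krt13 (2537 and 3866, 1.52-fold) and Krt4 (2385 and 3379.7, 1.42-fold), keratins of internal stratified linings, were far above the floor in both pools, and Ecm1 and Emp1 were 2.08-fold and 1.30-fold higher. Of 12 markers of simple epithelium, which also has Dsp, Dsg2 and Jup, 11 were higher and 3 at least 2-fold higher (median 0.57, summed signal 10963 and 14956). Krt20 was 5.13-fold, Cdh17 2.24-fold, Vil1 2.01-fold and Krt7 1.81-fold higher. Of 11 cardiac muscle markers, whose cells also carry desmosomes, 7 were lower in the EiPS pool and 4 of these at least 2-fold lower (median -0.66, summed signal 23306 and 15955). Des, Myh6 and Tnnt2 were 2.54-fold, 2.40-fold and 2.11-fold lower and Nppa at least 2.45-fold lower. Nppa was above the floor with B6 ES alone and could only come out lower. The 4 higher were Tnni3 (1.57-fold), Nppb (1.35-fold), Myh7 (1.29-fold) and Myl7 (1.03-fold). Of 7 neutrophil markers compared, 6 were higher and 2 at least 2-fold higher (median 0.75, summed signal 1894 and 4962). They include S100a9 and S100a8 (1.96-fold), Ltf (2.72-fold) and Camp (at least 1.68-fold). Ltf, with signals of 1434 and 3901, made up most of the summed signal. Mpo was 1.10-fold higher and Elane 1.55-fold lower. Camp and Ngp were above the floor with EiPS alone and could only come out higher. None of the markers on the array was listed at a signal of 0, which does not mean that each was detected. Krt36 of the oral list and Cxcr2 of the neutrophil list were under the floor on both arrays.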

How the data were processed

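RNA of 2 pooled tumours per group was measured on 1 Affymetrix array per group. Per the submitters' processing notes, Affymetrix Expression Console and MAS5 made the values (versions: not given in the sources used here). The deposited values are probe set intensities on a linear scale that the authors had already scaled, judged from equal trimmed means. Subtraction of mismatch probes by MAS5 adds noise to low values, and the scaled values are relative amounts.

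The array's 22690 probe sets comprise 20380 with 1 symbol, which were used, 691 with several, 1555 unnamed ones and 64 controls. Symbols were updated by Entrez identifier through a RefSeq table (GRCm38.p6; 20351 matched, 29 kept their symbol). Where a gene had several probe sets, the one with the highest mean log2 value was used. The floor was set as described above, signals under it were raised to it, and genes under it on both arrays were not compared. The spread between probe sets of a gene (SD 0.40 of log2 differences, 3813 genes) gauged noise and leaves out tumours, arrays and labelling. The number of arrays limits the precision.

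In each list, up to 4 genes with the largest differences were named. Some further genes, mostly ones that went the other way, were named after their values were seen. The members and lists were chosen with earlier results of these data known. Alternatives were no floor, a floor of 100, a floor at the 75th or the 98th percentile, log2(signal + 64), quantile, equal-median and loess scaling (span 0.4), the mean over probe sets, and leaving out shared probe sets. Leaving out Lce3a and Lce1f, and keeping to genes above the floor on both arrays, were added after the data were seen. The code was checked on made-up signals without noise, where differences set in genes far above the floor were returned. That check did not cover low signals, bounds or noise. Python 3.11.15, numpy 2.4.6, pandas 2.3.3 and statsmodels 0.14.6 were used. Proteins were not analysed here.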

Additional observations from a re-analysis of the deposited data

How the results depend on the processing

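The envelope and barrier genes kept a higher median in the EiPS pool under every alternative run, from 0.55 with log2(signal + 64) to 1.12 with no floor. At least 2-fold higher were 20 of the 41 compared, where 5.82% of all genes compared were. With a floor of 100 it was 12 of 26 (all genes 3.39%). With log2(signal + 64) it was 13 of 41 (all genes 2.24%), and with no floor 30 of 50 (all genes 10.1%). With the floor of 100, 26 genes in place of 41 were compared and 24 in place of 39 were higher. The number at least 2-fold lower, 0, was 1 with no floor (Dsc1, whose signals were both under the floor). The number lower by any amount, 2, was 4 with no floor, 4 with quantile scaling and 0 without shared probe sets, a setting that removes Tgm2 and Jup. The structural precursors had a median of 1.13, which became 1.78 with no floor and 0.68 with log2(signal + 64). The lipoxygenases went from 0.31 to 2.04 with no floor, and no value was possible with a floor of 100. The proteases went from 0.83 to 1.37 with a floor at the 98th percentile (49.6), 1.37 with no floor, 1.24 with equal medians and 1.25 with loess scaling. With the floor at 49.6, equal medians or loess scaling, Klk7 was no longer compared, so the median fell on Klk8. No protease difference grew under any of them. Equal medians moved the median of all genes from 0.07 to -0.06. Among differences under 2-fold, Dsg2 had -0.31 with the mean over probe sets, and Aloxe3 and Dsc2 reached -0.05 and -0.10. Bounds shrink by construction as the floor is raised. No paired analysis was possible because each group has 1 array.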

Other observations

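Appendage genes of the skin were looked at beside the envelope genes. Of 16 hair follicle genes on the array, 8 were compared, 6 higher and 2 lower in the EiPS pool, 0 by 2-fold (median log2 difference 0.25), with a summed signal of 514 with B6 ES and 569.8 with EiPS. Of the 6 higher, 3 (Foxn1, Krt71 and Padi3) were above the floor with EiPS alone and could only come out higher. Tchh was just under 2-fold, Msx2 1.51-fold and Dlx3 1.27-fold higher and Lhx2 1.32-fold lower. The hair shaft and inner sheath keratins Krt25, Krt27, Krt34, Krt35 and Krt86 and the regulators Hoxc13, Shh and Fgf5 were under the floor on both arrays. Of 5 sebaceous gland genes compared, 4 were higher (median 0.43, summed signal 4314 and 6027), with Plin2, a lipid droplet protein of many cell types, 2.17-fold, Pparg at least 1.89-fold and Mgst1 1.34-fold higher and Scd3 at least 1.88-fold lower. Pparg and Scd3 were each above the floor on a single array, so their direction was fixed. Of 4 melanocyte genes compared, all 4 were higher (median 0.51, summed signal 523 and 797), with Dct at least 2.05-fold, Kit 1.60-fold, Mitf 1.27-fold and Pmel 1.02-fold higher. Dct was above the floor with EiPS alone and could only come out higher. The part of these lists in the results for the envelope genes was not tested.

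Filaggrin and involucrin were under the floor in a pool where Lor, Sprr1a, Krtdap and Asprv1 had signals of 699, 902, 1499.6 and 700.1. Whether the 2 probe sets can detect their transcripts was not tested.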
